A study of Mus musculus with 6 samples.

Results

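Expression in lung mesenchymal stromal cells (LMSCs) of the pre-metastatic stage (PM-LMSCs) was compared with that of the adenoma stage (A-LMSCs), the first step along tumor progression. The members are genes that averaged 1 FPKM or more (fragments scaled to gene length and to library depth) across the 2 A-LMSC and 2 PM-LMSC libraries, which held for 10211 of the 34745 genes in the table. The LMSCs came from MMTV-PyMT mice, in which the mouse mammary tumor virus promoter drives the polyoma middle T antigen in the mammary epithelium, so that all groups carry the transgene and a wild-type group was not used here. According to the labels the mice were 6 to 7 weeks old for A-LMSCs and 9 to 10 weeks for PM-LMSCs. For metastatic-stage M-LMSCs they were 13 to 14 weeks old. The 2 M-LMSC libraries entered the comparison only through the estimate of the spread, and their values are set beside a few results. M-LMSCs were themselves compared only for Gapdh and Pianp, among the results flagged for a closer look. The study's methods give slightly later ages for the A and PM stages. All cells were sequenced at passage 3, after growth on plastic in DMEM with serum and removal of CD45+ cells, so the values describe cultured cells and stage and age cannot be told apart. For each stage the study's methods speak of 3 mice, and 1 library per stage was therefore not used here. The labels number the libraries 1 and 2 within each stage and do not say whether a library is 1 animal, so p-values measure the spread between these libraries.

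Mesenchymal stromal cells of the lung sit in the interstitium beneath epithelium and endothelium, lay down matrix and secrete growth factors, chemokines and complement proteins. The pre-metastatic lung is the organ before tumor cells have grown there, and its stroma is known to be altered by signals from the distant tumor. Cultures of lung stroma can also hold mesothelial cells of the pleura, which share vimentin with fibroblasts but also make keratins, uroplakins and mesothelin.

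Estimated depth in mega-fragments was 20.85 and 17.55 for the A-LMSC libraries and 14.75 and 15.85 for the PM-LMSC libraries. Genes of stroma were abundant in each of the 4 libraries compared, with Col1a1 at 761 to 1103 FPKM and Vim, which encodes vimentin, at 350 to 365 FPKM. Pecam1, an endothelial adhesion molecule, and Ptprc, which encodes CD45, stayed under 0.08 FPKM. Of 22 epithelial and mammary tumor markers, 17 stayed under 0.5 FPKM in all 4 libraries, and Epcam, Elf5, Grhl2, Csn2 and Wap were listed at 0. Of 22 hematopoietic markers 8 stayed under 0.5 FPKM, whereas Lyz2, the lysozyme of macrophages and neutrophils, was at 115 and 106 FPKM in A-LMSCs against 147 and 60.6 FPKM in PM-LMSCs. Values are given below in the order replicate 1, replicate 2.

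The first step was small for most genes. The log2 difference, PM-LMSC minus A-LMSC on log2(FPKM + 1), had a median of 0.01 and lay under 0.5 in absolute value for 96.2% of the tested genes. It reached 1 or more for 41 genes, all with both PM-LMSC libraries above both A-LMSC libraries, and -1 or less for 14 genes, of which 10 had both PM-LMSC libraries below. The A-LMSC libraries correlated at 0.991 across genes, the PM-LMSC libraries at 0.985, and an A-LMSC with a PM-LMSC library at 0.980 to 0.987. Genes are not independent replicates, and these correlations are descriptions.

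At an adjusted p under 0.05 limma called 4 genes, which is 0.0392% of the genes tested, with 3 higher in PM-LMSCs (0.0294%) and 1 lower (0.00979%). At an unadjusted p under 0.05 it called 668 genes (6.54%). With the replicate number as a block, which compares the 2 libraries of number 1 with each other and likewise those of number 2, limma called 30 genes (0.294%), 27 higher (0.264%) and 3 lower (0.0294%), and 1418 genes at an unadjusted p under 0.05 (13.9%), of which 475 were lower (4.65%). The labels do not say that libraries of the same number belong together. This pairing was read from the same libraries, so every p-value given with the block depends on it. Fitted without the block on the 4 libraries compared alone, limma called 29 genes (0.284%), of which 16 were among the 30. In all 30 genes the groups did not overlap. The difference had the same direction in each setting tried, which such groups largely fix in advance. Calls were lost whichever A-LMSC or PM-LMSC library was left out, which leaves 1 library in that group. With the block and A-LMSC replicate 1 or 2 left out, 2 and 1 of the 30 were called, and with PM-LMSC replicate 1 or 2 left out, 3 and 6. When a correction for GC content and exon length was added to the block, 6 of the 30 were called, namely Gapdh, C1s1, Ifi27l2b, Pianp, Mgll and Tmem151a. Both PM-LMSC libraries lay above both A-LMSC libraries in 19.5% of the tested genes and below them in 19.8%, the shares against which the counts of the gene lists are read. Such counts and the list medians are descriptions of these 4 libraries.

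**Figure D1:**
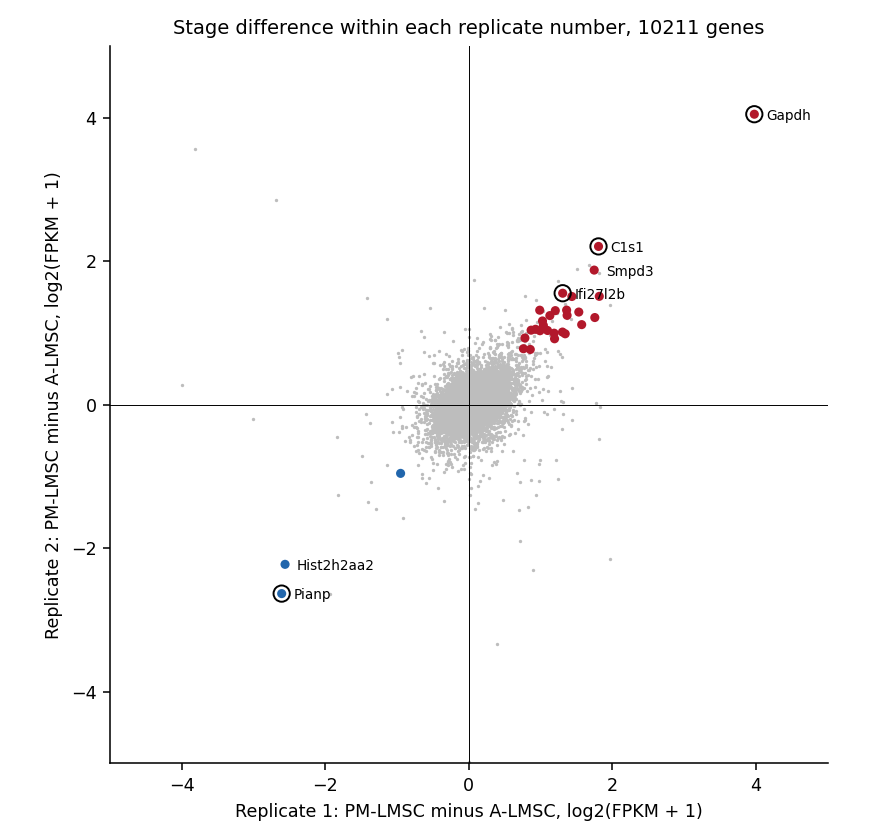
Difference between PM-LMSCs and A-LMSCs, log2(FPKM + 1), in the libraries numbered 1 (horizontal axis) and 2 (vertical axis), 1 point per tested gene. Red and blue points are the 27 genes called higher and the 3 called lower with the replicate block, and black rings mark the 4 genes called without it. Gapdh lies at 3.98 and 4.05, Pianp at -2.61 and -2.63 and C1s1 at 1.81 and 2.21.

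Gapdh, which encodes a glycolytic enzyme, was the gene that rose most. A-LMSCs held 1.68 and 2.13 FPKM and PM-LMSCs 41.3 and 50.8 FPKM, a log2 difference of 4.01 (SE 0.15, limma adjusted p = 0.000558) and a 24.2-fold ratio of means. Both M-LMSC libraries were near the adenoma level, at 1.32 and 1.45 FPKM. Most other glycolytic genes did not follow. Of the 18 tested, a count that includes Gapdh, 10 had both PM-LMSC libraries below both A-LMSC libraries, while Slc2a3 had both above. Gapdh had 127 near-identical annotated copies, of which 10 were in the table, and how the counting shared reads among them is not given in the sources used here. Gapdh lay under 3 FPKM in 4 of the 6 libraries, while Pgk1 and Tpi1, which encode neighboring enzymes of glycolysis, lay between 180 and 397 FPKM in all 6. Summed over the gene and the copies in the table, weighted by length, PM-LMSCs held 1692% of the A-LMSC level, but the copies outside the table were not counted. Whether the sharing of reads bears on the Gapdh difference was not tested, and the difference is uncertain as a change of the gene's expression.

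C1s1, which encodes the C1s serine protease of the classical complement pathway, rose from 3.87 and 3.25 FPKM to 16.1 and 18.6 FPKM (log2 difference 2.01, SE 0.14, limma adjusted p = 0.0104). Its near-identical neighbor C1s2 was lower, at 1.15 and 0.665 FPKM in A-LMSCs against 0.0508 and 0.0473 FPKM in PM-LMSCs, and with both copies summed PM-LMSCs held 399% of the A-LMSC level. Ifi27l2b, an interferon alpha-inducible gene at chr12:103450898-103457223 (GRCm38), rose from 5.35 and 4.76 FPKM to 14.7 and 15.9 FPKM (log2 difference 1.43, SE 0.11, limma adjusted p = 0.0202). Its neighbor Ifi27l2a had both PM-LMSC libraries higher as well, from 2.69 and 3.33 FPKM to 10.8 and 15.8 FPKM (log2 difference 1.81), without being called in either fit, although limma called it on the 4 libraries alone (adjusted p = 0.0284). Pianp, whose product is a ligand of the inhibitory receptor PILR alpha, fell from 5.88 and 5.95 FPKM to 0.128 and 0.119 FPKM (log2 difference -2.62, SE 0.16, limma adjusted p = 0.00693). The M-LMSC libraries were again close to the adenoma level for Pianp, at 4.58 and 6.51 FPKM.

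Of the 4 genes, 3 lay within a short stretch of chromosome 6, together with Eno2, the neuronal enolase, which fell from 4.13 and 4.37 FPKM to 1.65 and 1.77 FPKM (log2 difference -0.95, block SE 0.11, limma adjusted p = 0.0365 with the block). The stretch from C1s1 to Gapdh, chr6:124530345-125166467 on GRCm38, held 22 tested genes, of which 4 were called with the block. Over all tested genes the share called with the block was 0.294%. The called genes C1s1 and Gapdh set the ends of the stretch, so its count depends on how it was drawn and is a description. The other 18 had a median log2 difference of -0.10 and ranged from -0.66 to 0.25. Gapdh was called with any 1 of the 6 libraries left out. C1s1, Ifi27l2b and Pianp were not called when an A-LMSC or a PM-LMSC library was left out, with limma adjusted p up to 0.142 for C1s1 and Pianp and 0.259 for Ifi27l2b.

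**Figure D2:**
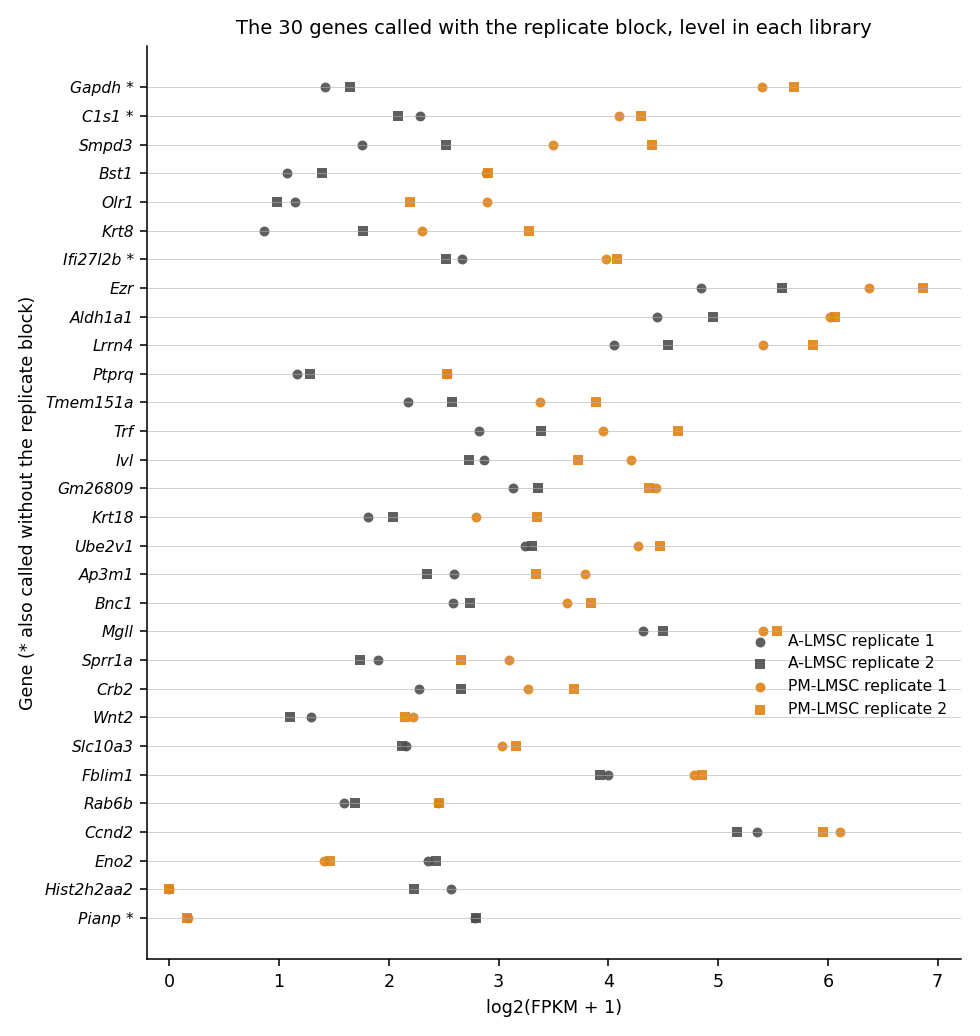
Level of the 30 genes called with the replicate block, as log2(FPKM + 1) in each A-LMSC (gray) and PM-LMSC (orange) library, with circles for replicate 1 and squares for replicate 2. For each gene the gray and orange points do not overlap, and in Krt8, Smpd3, Ezr and Trf the replicate 2 library is the higher one in both stages.

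The group with the largest shift was the mesothelial markers. Of 15 tested members 13 had both PM-LMSC libraries above both A-LMSC libraries and 1 had both below, with a median log2 difference of 1.15 against 0.01 over all tested genes. With the block limma called 5 members, all higher. Without it limma called 0 members, although 11 were higher and 1 lower at an unadjusted p under 0.05. Lrrn4, a leucine-rich repeat protein of mesothelium, rose from 15.5 and 22.3 FPKM to 41.5 and 57.1 FPKM (log2 difference 1.34, block SE 0.17, adjusted p = 0.0403 with limma and the block). Ezr, which encodes ezrin, the linker of microvilli to actin, rose from 27.6 and 46.8 FPKM to 81.9 and 116 FPKM (1.41, block SE 0.18, limma adjusted p = 0.0403 with the block). Bnc1, a zinc-finger transcription factor of basal and mesothelial cells, rose from 5.0 and 5.67 FPKM to 11.3 and 13.4 FPKM (1.07, block SE 0.12, limma adjusted p = 0.0365 with the block). All 3 had non-overlapping groups with the replicate 2 library higher at each stage.

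Msln, which encodes the surface protein mesothelin, had the largest difference of the mesothelial list. A-LMSC libraries had 8.87 and 12.7 FPKM and PM-LMSC libraries 33.8 and 47.7 FPKM (log2 difference 1.82), with a limma adjusted p of 0.0765 with the block and 0.0411 when only the 4 libraries were fitted without it. The urothelial and mesothelial uroplakins Upk1b (63.8 and 95.02 FPKM against 167 and 221 FPKM) and Upk3b (15.6 and 27.4 FPKM against 37.9 and 67.6 FPKM) lay higher in PM-LMSCs by 1.29 and 1.25 on the log2 scale without passing either test. Wt1, the Wilms tumor transcription factor of mesothelium, measured 1.72 and 1.79 FPKM in A-LMSCs against 3.40 and 3.85 FPKM in PM-LMSCs. Krt19 was the member that lay below, at 13.8 and 17.3 FPKM in A-LMSCs against 8.09 and 9.28 FPKM in PM-LMSCs. Aldh1a2, a retinaldehyde dehydrogenase of mesothelium, had overlapping groups.

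Levels of the mesothelial list also differed between the replicate numbers. Replicate 2 exceeded replicate 1 by a median of 0.38 on the log2 scale in A-LMSCs, 0.45 in PM-LMSCs and 1.15 in M-LMSCs, and the PM-LMSC minus A-LMSC medians within the numbers were 1.04 and 1.27. The summed FPKM of the 16 listed markers was 281 and 392 in A-LMSCs and 539 and 721 in PM-LMSCs. In bulk samples, more cells of a type and more RNA per cell cannot be told apart, and the part of either in this difference was not tested. The fibroblast markers, 15 tested, had a median log2 difference of -0.04, with 3 members above and 6 below.

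Keratins and epithelial junction genes, a list that shares members with the mesothelial one, had a median log2 difference of 0.53, with 13 of 19 tested members above and 2 below. The block fit called 3, all higher. Krt8 and Krt18, the partner keratins of simple epithelia, rose from 0.824 and 2.41 FPKM to 3.94 and 8.68 FPKM and from 2.50 and 3.10 FPKM to 5.94 and 9.22 FPKM (log2 differences 1.47 and 1.15, block SE 0.17 and 0.14, limma adjusted p = 0.0368 and 0.0369 with the block). Ezr was the third. Further genes of the list with higher values in both PM-LMSC libraries were Cdh3, which encodes P-cadherin (7.64 and 10.0 FPKM against 16.6 and 26.1 FPKM), and Mpzl2, an epithelial adhesion protein (2.24 and 2.98 FPKM against 7.36 and 6.93 FPKM). Of the 92 keratin and junction genes in the list, 33 were listed at 0 in all 4 libraries. The summed FPKM of the epithelial and mammary tumor markers, most of it from Krt19, was 18.1 and 24.98 in A-LMSCs and 19.7 and 28.7 in PM-LMSCs, so these ranges overlapped.

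**Figure D3:**
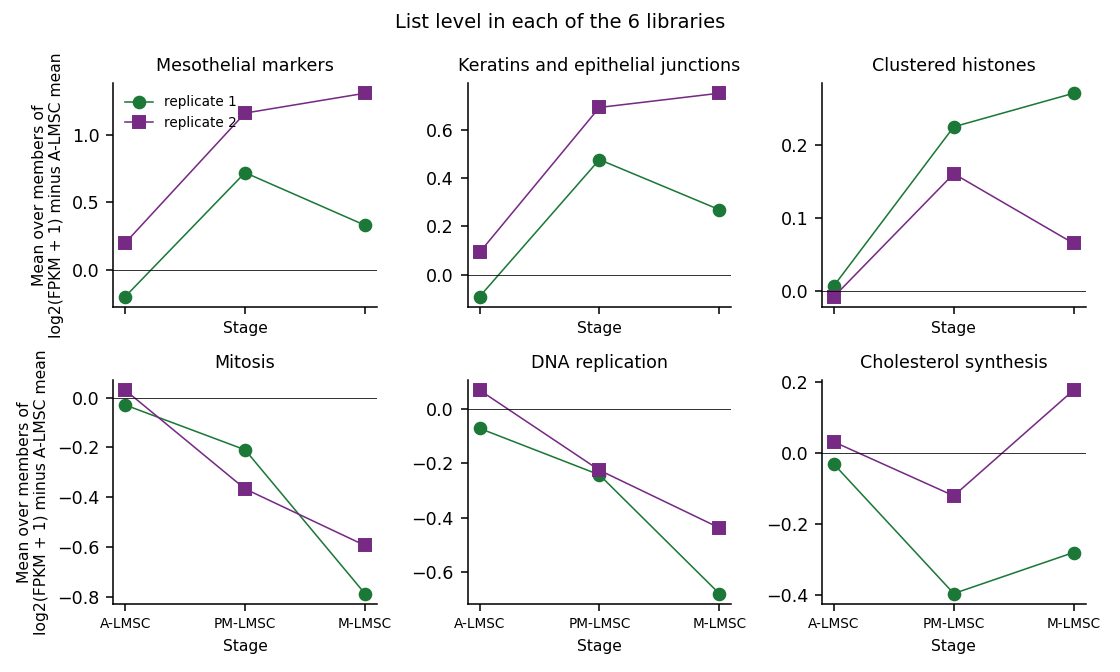
Mean over the tested members of 6 lists of log2(FPKM + 1), minus each gene's mean in A-LMSCs, in each library by stage, with replicate 1 in green and replicate 2 in purple. The mesothelial mean is -0.20 and 0.20 in A-LMSCs and 0.72 and 1.16 in PM-LMSCs, and the mitosis mean is -0.03 and 0.03 in A-LMSCs and -0.21 and -0.37 in PM-LMSCs.

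Among the remaining genes called with the block were surface and signaling proteins. Bst1, an ADP-ribosyl cyclase of stromal cells, rose from 1.10 and 1.62 FPKM to 6.401 and 6.47 FPKM (log2 difference 1.66, block SE 0.19, limma adjusted p = 0.0368 with the block). Olr1, the receptor for oxidized LDL, rose from 1.21 and 0.973 FPKM to 6.46 and 3.58 FPKM (1.49, limma adjusted p = 0.0248 with the block). Wnt2, a Wnt ligand of lung mesenchyme, rose from 1.45 and 1.14 FPKM to 3.66 and 3.43 FPKM (0.99, limma adjusted p = 0.0474 with the block). The polarity protein gene Crb2 (log2 difference 1.01), the receptor phosphatase gene Ptprq (1.31) and Tmem151a, a transmembrane protein gene (1.26), rose as well.

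The called genes also held 3 that act on lipid, retinoid or iron. Mgll, which encodes monoglyceride lipase, rose from 18.9 and 21.6 FPKM to 41.6 and 45.3 FPKM (log2 difference 1.07, block SE 0.10, limma adjusted p = 0.0185 with the block). Aldh1a1, a retinaldehyde dehydrogenase, rose from 20.8 and 30.0 FPKM to 63.8 and 66.2 FPKM (1.34, block SE 0.17, limma adjusted p = 0.0403 with the block). Trf, which encodes transferrin, rose from 6.07 and 9.48 FPKM to 14.5 and 23.8 FPKM (1.19, limma adjusted p = 0.0365 with the block). Replicate 2 was the higher library at both stages for Trf and Aldh1a1.

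Sprr1a and Ivl, cornified envelope proteins of squamous epithelia that lie near each other on chromosome 3, rose by 1.06 and 1.17 on the log2 scale. Ivl went from 6.29 and 5.65 FPKM to 17.5 and 12.2 FPKM, and Sprr1a from 2.74 and 2.34 FPKM to 7.56 and 5.31 FPKM (limma adjusted p = 0.0365 and 0.0368 with the block). Here the replicate 1 library was the higher one in PM-LMSCs. Ccnd2, which encodes the G1 cyclin D2, rose from 39.9 and 35.1 FPKM to 68.3 and 60.9 FPKM (0.77, block SE 0.10, limma adjusted p = 0.0403 with the block). Fblim1, a filamin-binding focal adhesion protein gene, rose by 0.86 and Rab6b, a Golgi Rab GTPase gene, by 0.81.

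For several called genes, reads could be shared with a copy or an overlapping gene. Ube2v1 rose by 1.10 on the log2 scale, but with its read-through gene Gm20431 and other copies included, PM-LMSCs held 100.1% of the A-LMSC level. Hist2h2aa2, a histone H2A gene, had 4.91 and 3.68 FPKM in A-LMSCs and was listed at 0 in both PM-LMSC libraries. With its near-identical copies included PM-LMSCs held 89.7%, but the gene itself made up only 6.1% of the A-LMSC sum. The length-weighted sums were 30.0 and 44.6 in A-LMSCs against 33.0 and 34.0 in PM-LMSCs. The copy Hist2h2aa1 was at 30.6 FPKM in A-LMSC replicate 2 and at 0 in A-LMSC replicate 1 and both PM-LMSC libraries. Ap3m1, an adaptor subunit gene whose annotated exons overlap Vcl on the opposite strand, rose by 1.09, and with Vcl included the sum was 114%. Ap3m1 itself made up 1.68% of that sum in A-LMSCs and 3.54% in PM-LMSCs, so the sum says little about Ap3m1. Slc10a3, which overlaps Ubl4a, rose by 0.95 with a sum of 150%, and Smpd3, a neutral sphingomyelinase gene that overlaps Prmt7, by 1.81 with a sum of 206%. The long noncoding RNA Gm26809 rose by 1.16, with a sum of 237%. Calls for Gapdh, Ube2v1, Hist2h2aa2 and Ap3m1 are uncertain, since the split of reads between these genes is not given in the sources used here.

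Large differences with non-overlapping groups that neither fit over the 6 libraries called were seen in both directions. The fit without the block on the 4 libraries alone called 13 genes that the block did not, namely Oaz1 and Mob1a (limma adjusted p = 0.0212 each), Mcpt8 (0.0224), Ifi27l2a and Des (0.0284 each), Msln, Nxph4, Itga7 and Vnn1, which encodes the ectoenzyme pantetheinase (0.0411 each), Rbm15b and Mpzl2 (0.0423 each), and Ndufa4l2 and the kinase gene Stk26 (0.0477 each). Vnn1 and Stk26 were named after their values were seen. Saa3, an acute-phase serum amyloid, was at 3.25 and 2.04 FPKM in A-LMSCs against 15.7 and 6.99 FPKM in PM-LMSCs. Angptl7, a secreted angiopoietin-like protein, was at 1.27 and 2.20 FPKM and then at 5.46 and 10.9 FPKM. Oaz1, the ornithine decarboxylase antizyme, was at 13.3 and 11.3 FPKM and then at 32.9 and 39.8 FPKM, while its copy Oaz1-ps stood at 336 and 328 FPKM and then at 292 and 402 FPKM. In these genes the PM-LMSC libraries differed from each other by more than the A-LMSC libraries did.

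Lower in both PM-LMSC libraries were the mast-cell protease genes Mcpt8 (17.7 and 16.5 FPKM against 6.65 and 5.37 FPKM) and Mcpt1 (2.75 and 2.89 FPKM against 0.987 and 0.306 FPKM), on chromosome 14. Ndufa4l2, a mitochondrial protein gene induced in hypoxia, measured 20.7 and 21.4 FPKM in A-LMSCs against 5.15 and 8.39 FPKM in PM-LMSCs. Its neighbor on chromosome 10, Nxph4, a neurexophilin gene, measured 10.7 and 10.9 FPKM and then 3.51 and 4.66 FPKM (log2 difference -1.22, limma adjusted p = 0.0522 with the block). At this rounding that was the lowest value among genes not called, and Upk3b, Hist1h3b and Gdf6 shared it. Rbm15b, an RNA-binding protein gene, measured 10.1 and 8.66 FPKM and then 1.89 and 0.543 FPKM. Mob1a, a kinase activator of the Hippo pathway, measured 13.1 and 11.3 FPKM and then 4.31 and 3.78 FPKM, and H6pd, the endoplasmic reticulum hexose-6-phosphate dehydrogenase, measured 145 and 146 FPKM and then 39.7 and 106 FPKM. The tetraspanin gene Tspan11 had a log2 difference of -0.996. The antisense gene Gm29100, at 8.41 and 0.259 FPKM in A-LMSCs, owed its mean to 1 library and overlaps Twist2.

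Most genes of cell division had lower values in PM-LMSCs, although limma called 0 of them in either fit. Of 43 tested mitosis genes, 30 had both PM-LMSC libraries below both A-LMSC libraries and 0 above, with a median log2 difference of -0.32 (-0.24 in the libraries numbered 1 and -0.41 in those numbered 2). At an unadjusted p under 0.05 limma had 17 of them lower without the block and 22 with it. Plk1, the polo-like kinase of mitotic entry, measured 24.8 and 28.6 FPKM in A-LMSCs against 13.4 and 20.7 FPKM in PM-LMSCs (-0.64, limma adjusted p = 0.12 with the block). Bub1b, of the spindle checkpoint (-0.56), Espl1, which encodes separase (-0.54), and Cdc25c, the phosphatase that activates the mitotic kinase (-0.53), followed in size. Mki67, a common proliferation marker, had overlapping groups.

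Of 39 tested DNA replication genes, 26 had both PM-LMSC libraries below and 0 above, with a median of -0.25, and at an unadjusted p under 0.05 limma had 5 lower without the block and 15 with it. Uhrf1, which maintains DNA methylation at replication, measured 11.9 and 13.7 FPKM in A-LMSCs against 7.92 and 9.02 FPKM in PM-LMSCs (-0.54). Cdc45, a replicative helicase factor, measured 7.30 and 8.38 FPKM and then 5.20 and 5.07 FPKM (-0.53), and the helicase subunit Mcm3 differed by -0.44. Each of the medians of the mitosis and replication lists stayed negative with any 1 library left out, from -0.37 to -0.28 and from -0.29 to -0.17.

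Promoters of these division genes are shown because their members lay lower together, and their known sequence elements can be read in them. The first 250 bases before the start of each gene were taken from RefSeq (GRCm38.p6) and searched on both strands. The cell-cycle homology region, TTTGAA, was found in 11 of the 35 mitosis promoters that matched (31.4%), against 16.3% of all 27025 promoters and 9.89% of the 7621 promoters of tested genes. The CCAAT box was found in 25 of the 35 (71.4%), against 34.5% of all promoters and 36.5% of those of tested genes. An E2F-type site, TTTNNCGC, was found in 9 of the 31 replication promoters that matched (29.0%), against 4.39% of all promoters and 7.73% of those of tested genes. Among the matched mitosis members with both PM-LMSC libraries below, 8 of 22 held TTTGAA and 16 of 22 the CCAAT box. Among such replication members 7 of 23 held the E2F-type site. Whether these elements bear on the lower values was not tested. The letters were searched separately, so 1 base can belong to more than 1 element, and a match describes the sequence and is not evidence of binding. Printed are Espl1 (chr15:102296043-102296292, + strand) and Ccnf (chr17:24251410-24251659, - strand), mitosis members holding TTTGAA with non-overlapping groups. They had the largest differences among the candidates, which left out the genes of 1 chromosome, so a member there may differ more. Capitals mark TTTGAA or its reverse complement.
Espl1: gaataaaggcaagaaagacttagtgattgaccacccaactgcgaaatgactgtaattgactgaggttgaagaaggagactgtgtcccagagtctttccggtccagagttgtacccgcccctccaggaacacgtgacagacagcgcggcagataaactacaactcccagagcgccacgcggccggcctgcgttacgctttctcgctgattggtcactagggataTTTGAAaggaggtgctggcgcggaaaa
Ccnf: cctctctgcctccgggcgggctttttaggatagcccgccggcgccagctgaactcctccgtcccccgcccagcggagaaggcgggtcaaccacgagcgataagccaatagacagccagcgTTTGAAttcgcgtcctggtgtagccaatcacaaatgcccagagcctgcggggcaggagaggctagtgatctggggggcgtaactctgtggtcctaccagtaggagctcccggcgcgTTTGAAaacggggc
Uhrf1 (chr17:56303087-56303336, + strand) and Mcm7 (chr5:138171884-138172133, - strand) were chosen likewise among replication members, and capitals mark the E2F-type site on either strand.
Uhrf1: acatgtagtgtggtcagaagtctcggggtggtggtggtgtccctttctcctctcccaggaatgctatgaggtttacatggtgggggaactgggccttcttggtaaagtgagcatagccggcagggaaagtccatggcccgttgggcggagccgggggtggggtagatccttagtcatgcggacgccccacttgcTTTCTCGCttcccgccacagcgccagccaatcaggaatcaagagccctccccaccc
Mcm7: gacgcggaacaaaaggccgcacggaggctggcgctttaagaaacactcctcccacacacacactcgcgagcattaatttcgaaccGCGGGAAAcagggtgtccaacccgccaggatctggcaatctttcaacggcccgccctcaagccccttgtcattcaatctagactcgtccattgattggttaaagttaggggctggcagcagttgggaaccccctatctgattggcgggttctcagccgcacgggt

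Ccnf, which encodes cyclin F, differed by -0.50 and Mcm7, a helicase subunit gene, by -0.35.

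Histone genes and brakes of the cell cycle lay on the other side. Of 25 tested clustered histone genes, 16 had both PM-LMSC libraries above and 2 below, with a median log2 difference of 0.36, and the 1 call with the block, Hist2h2aa2, was lower. Hist1h3b, a replication-dependent H3 gene, measured 2.17 and 1.01 FPKM in A-LMSCs against 4.26 and 3.35 FPKM in PM-LMSCs (0.92, limma adjusted p = 0.0522 with the block). Many clustered histone genes are near-identical to each other, and their replication-dependent transcripts lack a poly(A) tail, so their values also depend on library preparation, which the labels do not detail. Of 29 cell-cycle brakes and p53 targets, 14 lay above and 3 below, with a median of 0.16. Pmaip1, a p53 target that promotes apoptosis, measured 4.26 and 3.00 FPKM and then 8.87 and 5.30 FPKM, and Cdkn2b, which encodes the inhibitor p15, measured 38.6 and 33.3 FPKM and then 52.0 and 60.6 FPKM. Cdkn2c and Cdkn2d, inhibitors of the same family, lay below, by -0.46 and -0.38.

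**Figure D4:**
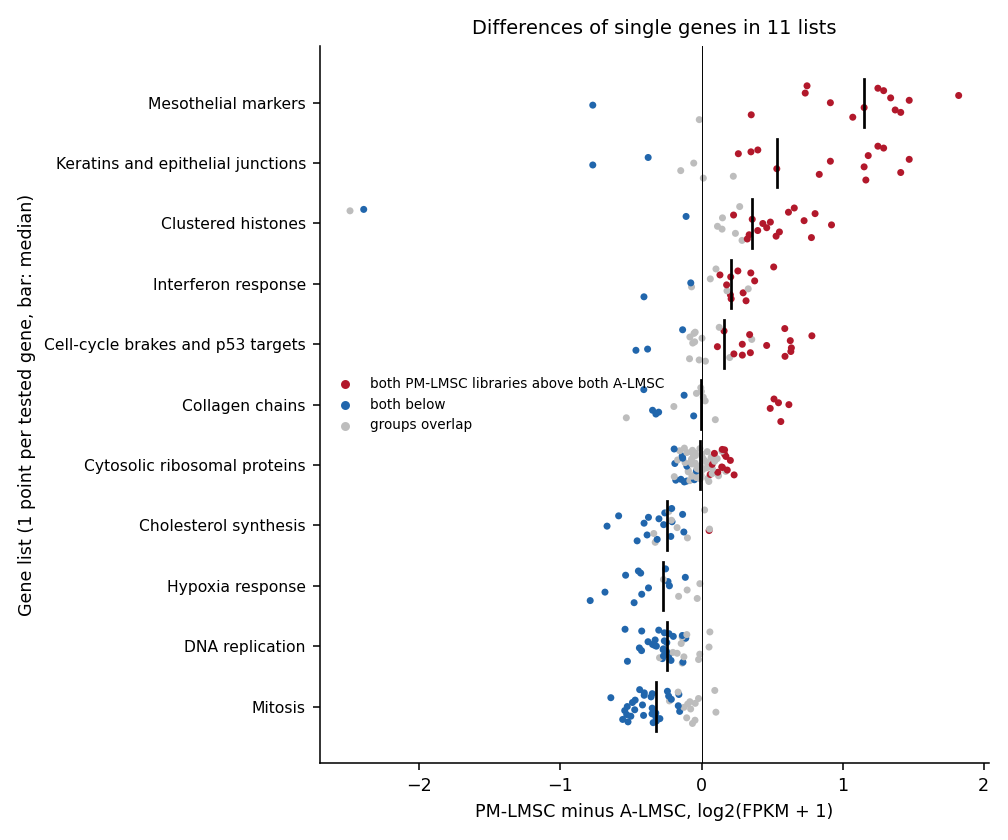
Log2 difference, PM-LMSC minus A-LMSC on log2(FPKM + 1), of each tested gene in 11 lists, with a black bar at the list median. Red genes have both PM-LMSC libraries above both A-LMSC libraries, blue genes both below, and gray genes overlap. Mesothelial, keratin and histone genes are mostly red, mitosis, replication, hypoxia and cholesterol genes mostly blue or gray, and ribosomal protein genes center near 0.

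Metabolic lists lay lower or near the median of all genes. Of 17 tested hypoxia response genes, 12 had both PM-LMSC libraries below and 0 above, with a median of -0.27. In limma, 0 were called in either fit, and 7 were lower at an unadjusted p under 0.05 without the block and 8 with it. Bnip3, a mitophagy receptor, measured 39.2 and 40.4 FPKM in A-LMSCs against 26.4 and 19.4 FPKM in PM-LMSCs (log2 difference -0.79), and Egln3, an oxygen-sensing prolyl hydroxylase, measured 19.1 and 18.5 FPKM and then 11.4 and 11.3 FPKM (-0.68). Both passed neither test. Glycolysis genes had a median of -0.23 despite Gapdh, with the lactate exporter gene Slc16a3 at 49.4 and 56.3 FPKM and then 31.1 and 36.2 FPKM (-0.64). Slc2a3, a glucose transporter gene, lay above, by 0.70.

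Of 24 tested cholesterol synthesis genes, 15 had both PM-LMSC libraries below and 1 above, with a median of -0.25. Here too limma called 0, and 2 were lower at an unadjusted p under 0.05 without the block and 7 with it. Insig1, the sterol sensor's retention protein, measured 46.0 and 52.2 FPKM in A-LMSCs against 27.7 and 33.4 FPKM in PM-LMSCs (-0.67), and Cyp51, a sterol demethylase gene, 29.9 and 34.3 FPKM and then 21.95 and 24.3 FPKM (-0.46). The size of this list's median depended on the libraries, at -0.10 without PM-LMSC replicate 1 and -0.46 without PM-LMSC replicate 2. A sterol regulatory element, TCACNCCAC, was found in 1 of the 17 promoters of the list that matched and in 1.04% of all promoters and 0.971% of those of tested genes. Scd2 and Scd1, stearoyl-CoA desaturases of the fatty acid list, had log2 differences of -0.67 and -0.54.

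Of 40 lysosome genes, 19 lay below and 5 above with a median of -0.10, and of 35 ATF4 stress genes 13 lay below and 3 above with a median of -0.14. Cebpb, a transcription factor of the ATF4 list, was at 104 and 111 FPKM in A-LMSCs but at 136 and 10.1 FPKM in PM-LMSCs, so 1 library set its mean. The chaperone list had a median of -0.06, with Manf, a secreted endoplasmic reticulum protein, at 42.4 and 40.4 FPKM and then 26.7 and 28.8 FPKM. Nuclear-encoded respiratory chain genes had 15 of 77 above and 4 below with a median of 0.08, and cytosolic ribosomal protein genes had 13 of 78 above and 11 below with a median of -0.01. Proteasome, heat shock and NRF2 antioxidant genes had medians between -0.01 and 0.05.

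Among complement genes, 8 of 16 tested lay above and 2 below, although the median was 0.08. C3, the central component on which all complement pathways converge, measured 2.19 and 2.30 FPKM in A-LMSCs against 5.11 and 8.06 FPKM in PM-LMSCs (log2 difference 1.20, block SE 0.19, limma adjusted p = 0.0618 with the block and 0.444 without it). Clu, which encodes the regulator clusterin, measured 7.83 and 9.398 FPKM and then 15.7 and 19.9 FPKM (0.97), and the membrane inhibitor Cd59a differed by 0.59. The C1q genes C1qa, C1qb and C1qc, made by macrophages, had overlapping groups. Outside C1s1, no complement gene was called.

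Of 18 tested interferon response genes, 11 lay above and 2 below, with a median of 0.21. Isg15, a ubiquitin-like protein, measured 8.57 and 9.52 FPKM in A-LMSCs against 10.5 and 13.2 FPKM in PM-LMSCs, whereas Gbp2, a guanylate-binding protein, lay below (-0.41). Chemokine genes were mostly low, with 10 of 58 tested, and Ccl2 measured 18.5 and 10.3 FPKM and then 27.3 and 19.2 FPKM. Cxcl14 differed by 0.82 and Ccl8 by -0.64, with non-overlapping groups in each. Icam1, the leukocyte adhesion molecule, measured 16.6 and 17.7 FPKM and then 28.5 and 36.9 FPKM, and Il1rl1, the interleukin-33 receptor, 4.35 and 3.89 FPKM and then 2.41 and 1.496 FPKM. No gene of these lists passed either test. The median of the 12 antigen presentation genes was 0.04, and Stat6, the transcription factor of interleukins 4 and 13, measured 24.5 and 27.4 FPKM and then 17.9 and 22.4 FPKM.

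Matrix genes lay on both sides, with a median of -0.01 over 19 tested collagen chains, 5 above and 6 below. The basement membrane chains Col4a1 (225 and 210 FPKM against 332 and 338 FPKM) and Col4a2 (184 and 172 FPKM against 247 and 274 FPKM) lay higher in PM-LMSCs, by 0.62 and 0.55 on the log2 scale. Col4a6 differed by 0.51, Col4a5 overlapped between the groups, and Col18a1, another basement membrane chain, lay lower (-0.32). Of the fibrillar chains, Col1a1 and Col1a2 lay lower, with log2 differences of -0.30 and -0.35, whereas Col11a1 lay higher (0.56) and Col3a1 overlapped. No collagen chain was called in either fit. At an unadjusted p under 0.05 limma had 3 higher and 1 lower without the block.

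Adhesion and contractile genes also lay on both sides. Itga3 and Itga7, laminin receptor subunits, measured 11.7 and 15.1 FPKM in A-LMSCs against 27.1 and 35.1 FPKM in PM-LMSCs for Itga3, with 2.83 and 3.37 FPKM and then 7.49 and 7.81 FPKM for Itga7. The laminin gene Lama5 differed by 0.78 and Lama1 by -0.63. Des, which encodes the muscle intermediate filament desmin, measured 141.7 and 153 FPKM and then 311 and 299 FPKM (1.05, limma adjusted p = 0.0597 with the block and 0.0284 with only the 4 libraries). Cnn1 and Actg2, smooth muscle calponin and actin, lay lower (-0.39 and -0.40). The gelatinase gene Mmp2 measured 60.5 and 61.5 FPKM and then 88.7 and 111 FPKM, while the stromelysin gene Mmp3 measured 34.7 and 32.7 FPKM and then 20.5 and 20.5 FPKM.

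Growth factor pathways differed in their balance of higher and lower members. Of 46 TGF-beta, activin and BMP genes, 20 lay above and 7 below, with a median of 0.09. Gdf6, a BMP-family ligand, measured 21.1 and 18.4 FPKM in A-LMSCs against 37.5 and 35.6 FPKM in PM-LMSCs (0.86, limma adjusted p = 0.0522 with the block). Inhba, which encodes the activin A subunit, and Smad6, an inhibitory SMAD, differed by 0.70 and 0.66, and the BMP targets Id1 and Id2 by 0.49 and 0.40. Of the latent TGF-beta binding proteins, Ltbp4 lay above (0.33) and Ltbp1 below (-0.43).

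Of 41 genes of the FGF, PDGF, VEGF, HGF and EGF pathways, 18 lay above and 10 below, with a median of 0.12. Ligands were among the higher members, with Fgf18 at 9.17 and 9.34 FPKM in A-LMSCs against 16.6 and 14.2 FPKM in PM-LMSCs and with Kitl, the Kit ligand, and Hbegf differing by 0.66 and 0.51. The receptors Pdgfra and Pdgfrb lay below (-0.47 and -0.38). VEGF genes went the other way, with the ligand Vegfa below (-0.25) and the receptors Kdr and Flt1 above (0.15 and 0.23). Of 34 Wnt genes 11 lay above and 15 below, with the ligands Wnt2 and Wnt2b and the agonist Rspo1 above and the receptor Fzd8 and the antagonist Sfrp1 below (-0.56 and -0.42). Apart from Wnt2 no gene of these pathways was called.

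Of 35 tested lung mesenchyme and Hox factors, 12 lay below and 3 above, with a median of -0.08. Tcf21, a transcription factor of lung fibroblasts, measured 4.16 and 5.98 FPKM in A-LMSCs against 2.77 and 3.71 FPKM in PM-LMSCs. In the retinoid list, where Aldh1a1 was called, Crabp1 and Dhrs3, a binding protein and a reductase, lay below (-0.72 and -0.61), and the median was 0.00. The proliferin genes, placental hormones of the prolactin family, went opposite ways in the replicate numbers, with Prl2c3 at 17.9 and 17.3 FPKM in A-LMSCs against 32.5 and 5.78 FPKM in PM-LMSCs. Hematopoietic markers did likewise, with medians of 0.33 and -0.28 in the numbers 1 and 2, and 1 of 11 tested members had non-overlapping groups.

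**Figure D5:**
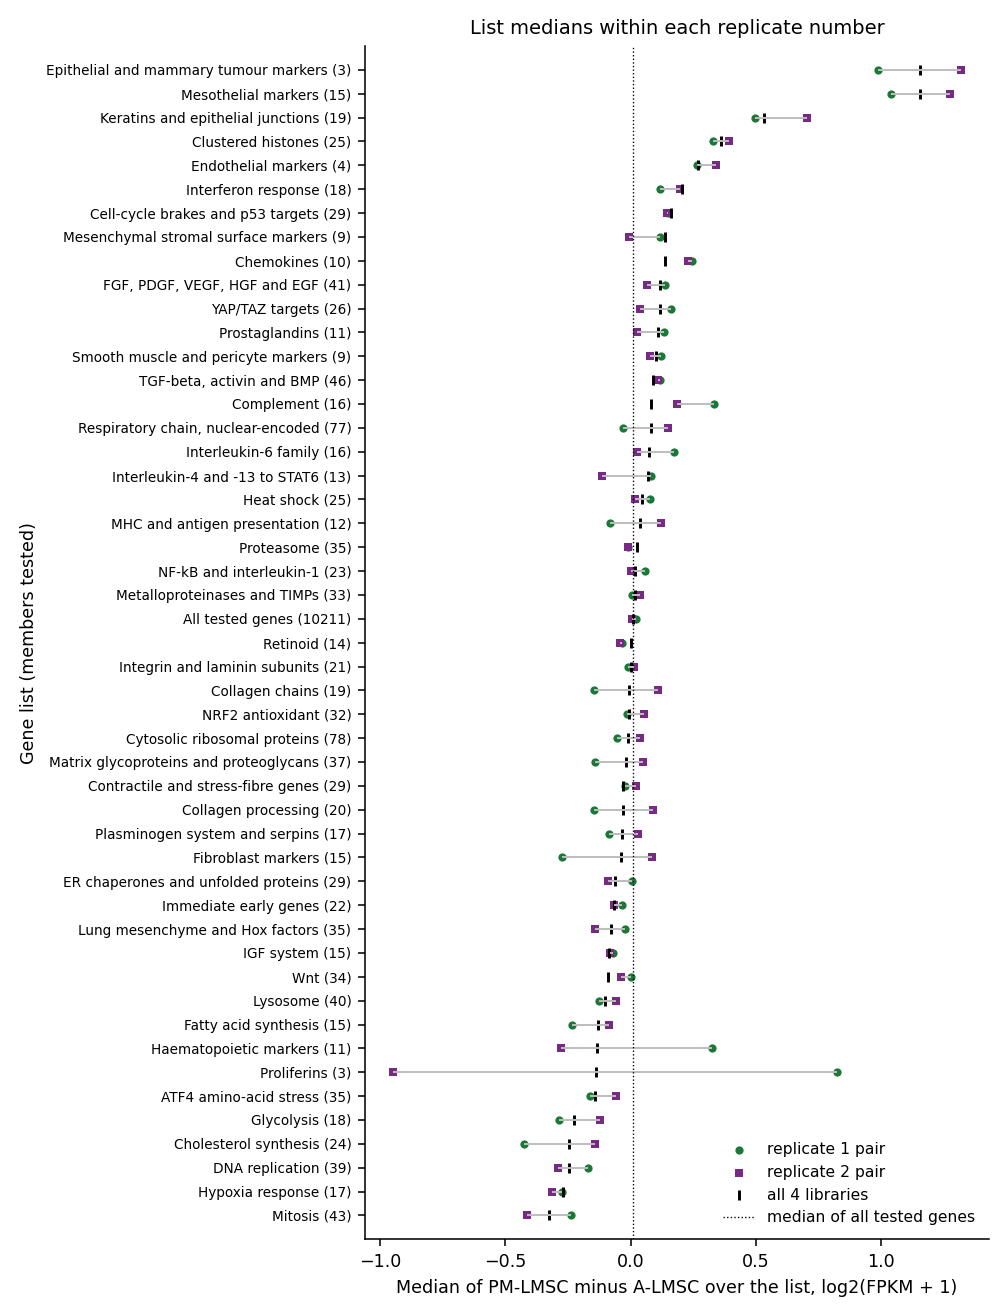
Median log2 difference, PM-LMSC minus A-LMSC on log2(FPKM + 1), of the 48 gene lists and of all tested genes, in the libraries numbered 1 (green circles), in those numbered 2 (purple squares) and over all 4 (black bars), with the number of tested members in parentheses. The dotted line is the median of all tested genes, and the mesothelial list lies at 1.04 and 1.27 while the proliferins lie at 0.82 and -0.95.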

How the data were processed

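RNA-seq of LMSCs from MMTV-PyMT mice was analyzed from the table the authors deposited, which holds FPKM values, fragments scaled to gene length and library depth, 1 column per library. The submitters' processing notes name TopHat2 2.0.9 and mm10, while the counting tool, its annotation and its strand setting are not given in the sources used here. Depth was taken from the steps between low values. Since those steps gave whole fragments (within 0.1) for 20.1% to 22.9% of the low values of genes with several transcripts, counts were not recovered and no count model was used. Precision near 1 FPKM is limited by the number of libraries and their depth.

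Genes averaging 1 FPKM or more across the 4 libraries entered the tests, and 78 genes lay just outside, at 0.95 to 1 FPKM. Values were transformed as log2(FPKM + 1), which understates the change of low genes, and limma 3.58.1 (R 4.3.3) was used, with 1 mean per stage over the 6 libraries, a trend on mean expression and Benjamini-Hochberg adjustment at 0.05. Replicate numbers were taken to pair the libraries because deviations from the stage means correlated at 0.239, 0.309 and 0.494 between the stages. The labels give the numbers alone, so this pairing was read from the same data and may not be one of the design. The second fit has the number as a block. The fits were tested on simulated data.

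The members, the 48 gene lists and the comparison were chosen with earlier results of these data known. Genes named were those called in either fit, the 12 with the largest rise and fall among genes with non-overlapping groups, up to 4 such genes per list by size, C3 and cell type markers. Mcm7, Ccnf, Mki67, Cebpb, Prl2c3, the C1q genes and other overlapping or smaller list members were named after their values were seen. Lists were described by counts and medians without a test. Of 34745 identifiers, 34344 matched GENCODE M21 (GRCm38), 57 gene names were repeated, and the identifier listed first was used. Copies were searched with blastn 2.17.0 (at least 95% identity over 200 bases), and promoters came from RefSeq. Python 3.11.15 with pandas 2.3.3 was used. The alternatives were other pseudocounts, filters, normalizations and fits, and each library left out in turn.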

Additional observations from a re-analysis of the deposited data

Results flagged for a closer look

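The difference of Gapdh from A-LMSCs was not the same at the 2 later stages. In PM-LMSCs it was 4.01 on the log2 scale and in M-LMSCs -0.28, and the later stages differed from each other by -4.29 (M-LMSC minus PM-LMSC, SE 0.149, limma adjusted p = 0.000359). Both PM-LMSC libraries lay above all 4 other libraries.

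Pianp showed the opposite course, with a difference from A-LMSCs of -2.62 in PM-LMSCs and -0.10 in M-LMSCs, and a difference of 2.53 between the later stages (M-LMSC minus PM-LMSC, SE 0.160, limma adjusted p = 0.00880). Both PM-LMSC libraries lay below all 4 other libraries. The cause was not tested for either gene. For Gapdh, reads may be shared with near-identical copies, and how they were counted is not given in the sources used here.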

How the results depend on the processing

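Without the replicate block limma called 4 genes with a pseudocount of 0.1, a mean of 1 FPKM over all 6 libraries, quantile normalization, median centring, no trend or a log2 difference of at least 1, and 5 with a GC and length correction. It called 2 genes without a filter (1 higher, 1 lower), 3 with a mean of at least 5 FPKM (0 lower, with 374 genes at an unadjusted p under 0.05 in all), and 29 on the 4 libraries alone (21 higher, 8 lower). Leaving out 1 library gave 1 to 30 calls, 1 to 21 higher and 0 to 9 lower, with 1 or 2 calls when the library was of the A or PM stage and 29 or 30 when it was of the M stage. With the block it called 30 genes (27 higher, 3 lower), and 6 with the GC and length correction added (5 higher, 1 lower). With the block on the 4 libraries alone it called 612 (426 higher, 186 lower), with 1 residual degree of freedom and 44 calls whose groups overlapped. Leaving libraries out of the fit with the block, an alternative chosen after seeing the data, gave 3 and 2 calls without A-LMSC replicate 1 and 2 (1 higher without replicate 2), 5 (3 lower) and 8 (5 higher, 3 lower) without PM-LMSC replicate 1 and 2, 611 without M-LMSC replicate 1 (426 higher, 185 lower) and 619 without M-LMSC replicate 2 (433 higher, 186 lower). A lone library was assumed to vary like the other groups. C1s1, Ifi27l2b and Pianp were not called without a filter (limma adjusted p = 0.057, 0.062 and 0.057). Over the 203 genes followed, 3355 values kept direction and side of the threshold, 231 passed it newly, 15 no longer did and 0 changed sign. Many of the 203 genes were named because their groups did not overlap, so changes of sign were unlikely from the start. Of the list medians, 742 moved by less than the spread between libraries and the others by more. In 21 lists, each with a median within 0.14 of 0, the sign was opposite in at least 1 setting. The cause of these changes was not tested. With 2 libraries per stage the number of libraries limits the calls, and near 1 FPKM depth does too.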
